A study of Mus musculus with 48 samples.

Results

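The maturation of the hippocampus between postnatal day 5 (P5) and 6 weeks (6W) was followed by RNA sequencing in male mice that lack Aag, alkyladenine DNA glycosylase, an enzyme of DNA repair. The samples were the 4 hippocampus libraries labelled Aag KO at 5 days and the 4 labelled Aag KO at 6 weeks, 8 of the 48 libraries of the series. They were chosen by their tissue, genotype and age labels alone. The other libraries came from Aag WT mice, from a 6-month age (6M) and from prefrontal cortex, in groups of 4. Of these, the 8 WT hippocampus libraries of P5 and 6W and the 8 KO prefrontal libraries of the same ages were used here to test where the KO hippocampus differed. The 4 KO hippocampus libraries of 6M served for the step after 6 weeks. The remaining libraries entered the fits, which drew the spread from all groups they held. The study was designed with 4 animals per time point. The KO mice are given as Aag-/- and the labels name no treatment, and strain, litter and the deleted part of the gene are not given in the sources used here. Whole hippocampus was sequenced, so each value is an average over all of its cells. A lower value can therefore come from fewer cells of a type or from less RNA per cell, which cannot be told apart.

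Aag, encoded by Mpg, is the glycosylase that starts base excision repair of alkylated and deaminated purines by cutting the damaged base from the sugar. In the rodent hippocampus the first postnatal weeks are the time when neurons stop extending axons and form synapses, when oligodendrocytes wrap axons in myelin, when granule cells of the dentate gyrus are still being born, and when astrocytes, microglia and vessels take their adult form.

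The 8 libraries held 21926364 to 30008907 counts each, and values below are CPM, counts per 1000000 counts of a library after scaling by edgeR's TMM factors. A floor of 3 counts corresponded to at most 0.139 CPM on this scale. Mitochondrially encoded genes took 9.59% to 13.2% of the counts at P5 and 17.7% to 28.1% at 6W. The highest share belonged to KO 6W replicate 1, which stood apart from the other 3 of its group (17.7% to 19.7%). WT 6W replicate 1 had a share of 31.6%, above the other WT 6W libraries. Each gene group below was therefore also counted without both of these libraries, and the part of the mitochondrial share in the results was not tested.

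Mpg (Ensembl ENSMUSG00000020287, chr11:32226505-32232700 in GRCm38) was first checked against the genotype labels. Its level was 1.55, 0.94, 1.28 and 1.65 CPM in the 4 KO libraries at P5 and 1.58, 2.03, 1.61 and 1.7 CPM in the 4 KO libraries at 6W. The WT libraries held 8.89, 7.65, 8.25 and 7.15 CPM at P5 and 6.49, 4.48, 4.93 and 4.44 CPM at 6W. Every KO library lay below every WT library at both ages, with a residual signal in KO. Between P5 and 6W, Mpg in KO did not pass the test (log2 fold change 0.35, SE 0.21, edgeR adjusted p = 0.148), whereas it fell in WT (log2 fold change -0.66, edgeR adjusted p = 0.00166). The difference between the changes of KO and WT was 1.0 (95% interval 0.45 to 1.55) (log2), and its edgeR adjusted p = 0.545 did not pass.

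Most of the measured transcriptome changed between P5 and 6W in the KO hippocampus. Of 17786 genes tested, 5545 rose (31.2%) and 5506 fell (31%) at an edgeR adjusted p under 0.05, which together is 62.1%. At least a 2-fold change (1 log2 unit) was seen for 2518 genes that rose (14.2%) and 2261 that fell (12.7%). A change of at least 4-fold was called for 835 higher and 702 lower genes, and one of at least 16-fold for 137 higher and 73 lower genes. The median log2 fold change over all tested genes was 0.01, a centre that TMM scaling sets near 0. The shares 31.2% and 31% are the background against which each group of genes is read below.

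Myelin genes led the rises of well expressed genes. Mobp, a myelin protein (chr9:120149707-120181484), had 1.77, 1.02, 2.14 and 2.89 CPM at P5 and 1290.1, 693, 580.2 and 708 CPM at 6W (log2 fold change 8.70, SE 0.48, edgeR adjusted p = 9.26e-15). Mbp, which holds the cytoplasmic faces of myelin together, rose from 40.6 to 1948 CPM (group means of 4, log2 fold change 5.58, SE 0.30, edgeR adjusted p = 4.57e-15). Next came Ano3 (4.93), a membrane protein of the anoctamin family, and Cntnap1 (4.48), the axonal protein of the paranodal junction. Ugt8a (4.20), which makes the galactolipids of myelin, followed. Rasgrf1 (4.07), a calcium-regulated exchange factor of neurons, Gm2115 (3.90), Fam107a (3.84) and Bcas1 (3.72), a gene of newly myelinating oligodendrocytes, were also among the 10 largest rises of well expressed genes (mean log2 CPM of at least 5). The rule that chose the 10 asked that the libraries of the 2 ages not overlap.

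The 10 largest falls of well expressed genes were led by genes of young neurons. Trim67, a ubiquitin ligase of growing axons, fell by 5.66 on the log2 scale. Dcx, the microtubule protein of migrating neurons (chrX:143855842-143933311), had 1975, 1899, 2157 and 2592 CPM at P5 and 58.1, 54.2, 72.3 and 57 CPM at 6W (log2 fold change -5.16, SE 0.21, edgeR adjusted p = 2.18e-17). The other 8 were St8sia2 (-5.04), the polysialyltransferase of the fetal brain, Dpysl3 (-5.02) and Dpysl5 (-4.96), collapsin response mediators of growth cones, Cd24a (-4.97), Cxadr (-4.44), an adhesion molecule, Tnc (-4.07), a matrix glycoprotein, Tubb2b (-4.05), a tubulin of young neurons, and Nrep (-3.81). They were chosen by the same rule.

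**Figure D1:**
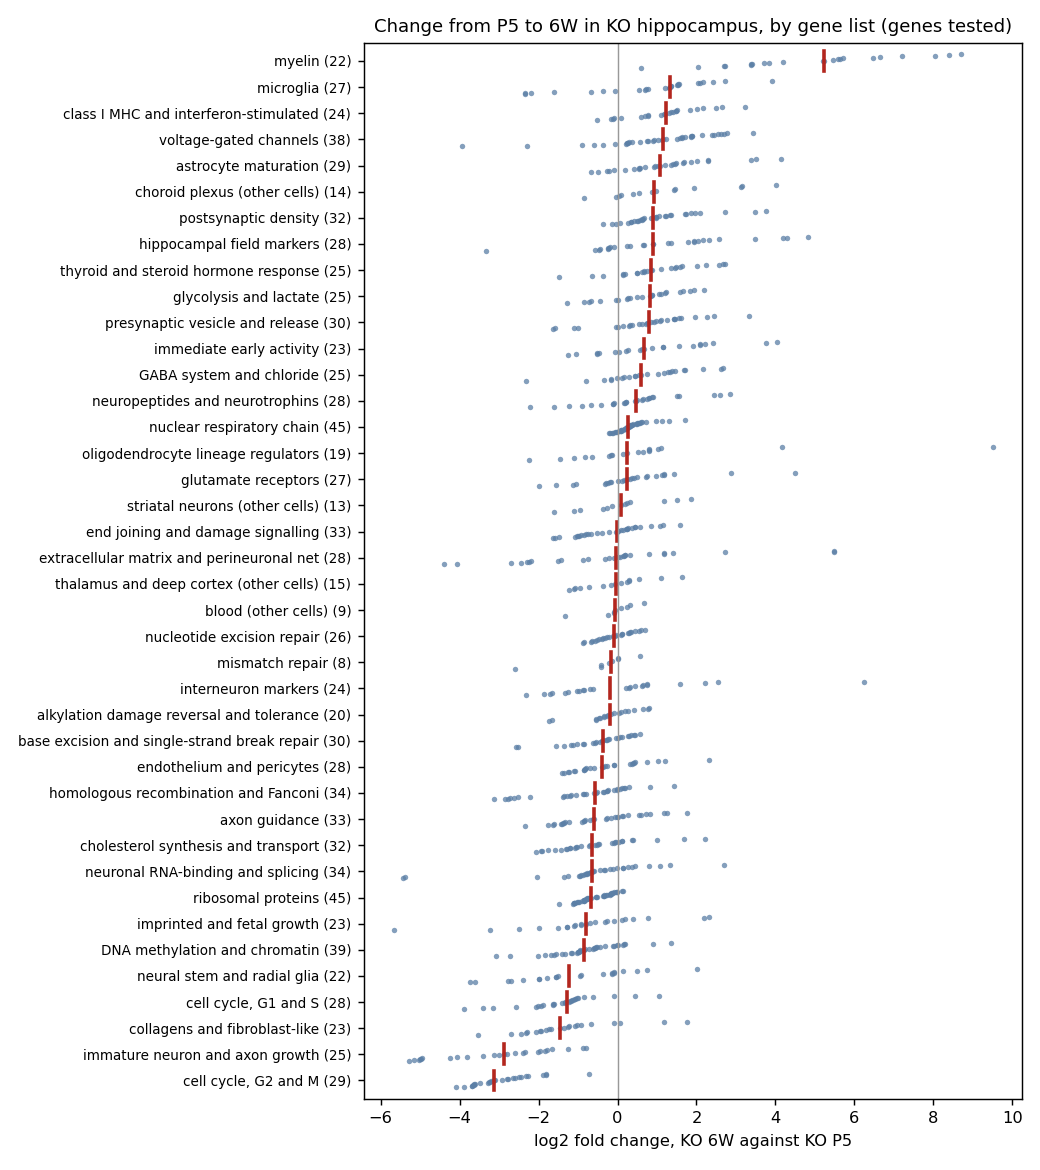
Log2 fold change of every tested member of 40 gene lists between KO P5 and KO 6W (points, 4 libraries per age), with the list median as a vertical red line and the number of tested members in brackets. Myelin stands at the upper end with a median of 5.22 and genes of the G2 and M phases at the lower end with a median of -3.13, while most lists hold members on both sides of 0.

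Genes of immature neurons and axon growth fell as a whole list. All 25 members passed the filter on low counts and all 25 fell, against 31% of all genes tested. The median log2 fold change was -2.87, against 0.01 over all genes. Draxin, a repulsive guidance protein, had the largest fall of the list (-5.29). Sox11 (-3.40), a transcription factor of newborn neurons, Gap43 (-2.99), the growth cone protein, Tubb3 (-2.81) and Stmn1 (-2.33), a tubulin binder, fell as well. All were still measured above the floor at 6W. Tubb3, for example, had 113, 117, 104 and 109.9 CPM at 6W after 797, 825, 766 and 724 CPM at P5.

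Guidance cues and their receptors moved in both directions. Of 33 members tested, 7 rose and 18 fell, with a median log2 fold change of -0.59. Among receptors, Dcc, the netrin receptor (-1.60), Robo1, a Slit receptor (-1.34), and Ephb2 (-2.34) fell, whereas Epha4 (0.55) and Epha7 (1.18) rose. Among the cues, Sema3a (-1.41) and Sema3c (-1.77) fell and Slit1 rose (1.26). The share that fell, 18 of 33, exceeded the background of 31%, and the share that rose, 7 of 33, was below 31.2%.

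Proliferation genes fell together. The list of G2 and M phase genes had 29 members tested, all of which fell, with log2 fold changes from -4.09 to -0.73 and a median of -3.13. Mki67, a protein of dividing cells, had 83.2, 87.2, 96.8 and 95.1 CPM at P5 and 7.98, 7.09, 6.24 and 6.84 CPM at 6W (log2 fold change -3.69, SE 0.15, edgeR adjusted p = 1.44e-17). Top2a, the topoisomerase that untangles replicated chromosomes, changed by -3.62, Cdk1, the kinase of mitotic entry, by -3.64, and its partner cyclin Ccnb1 by -3.49. No P5 library overlapped with a 6W library for any of the 29 genes, against 28.2% of all tested genes that were lower at 6W without overlap. All 4 of these genes were still measured at 6W, for example Mki67 at 7.04 CPM ± 0.722 (SD, n = 4), which is above the floor.

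The genes of the G1 and S phases fell by smaller amounts. Of 28 tested, 2 rose and 25 fell, with a median of -1.28. Rrm2, a subunit of the enzyme that makes deoxynucleotides, changed by -3.40, Mcm2, a part of the replicative helicase, by -1.62, E2f1, a transcription factor of S phase entry, by -1.18, and Pcna, the sliding clamp of polymerases, by -0.86. Ccnd1, the D-type cyclin, was an exception and rose (0.45), and Ccne1 was the other gene of the list that rose (named after its value was seen, 1.06).

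The promoters of the G2 and M genes are shown because these genes fell together and are known to share promoter elements. CHR elements (cell cycle genes homology region, TTTGAA) and CCAAT boxes are bound by the complexes that repress and activate mitotic genes. RefSeq sequences (GRCm38.p6) were found for 24 of the 29 genes, and the 250 bases before the RefSeq start were searched on both strands for TTTGAA and for CCAAT, 2 motifs that can share no more than an end base. TTTGAA was present in 40.0% of the 25 promoters of the list, against 16.0% of all 32851 promoters in the table and 10.8% of the promoters of genes tested here. CCAAT was present in 84.0% of them, against 33.8% of all promoters, and both motifs in 36.0%, against 5.55%. The G1 and S list had TTTGAA in 7.41% and CCAAT in 63.0% of its 27 promoters. A match is only a string of letters and no evidence of binding. The 120 bases before the RefSeq start are printed for 4 genes of the list, all on the minus strand and written 5′ to 3′, with both motifs and their reverse complements in capitals. They lie at chr7:135716380-135716499 for Mki67, chr11:99024190-99024309 for Top2a, chr13:100786487-100786606 for Ccnb1 and chr10:69352913-69353032 for Cdk1.
Mki67: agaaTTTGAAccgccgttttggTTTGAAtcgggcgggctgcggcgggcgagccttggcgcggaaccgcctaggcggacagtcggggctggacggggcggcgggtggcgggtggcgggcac
Top2a: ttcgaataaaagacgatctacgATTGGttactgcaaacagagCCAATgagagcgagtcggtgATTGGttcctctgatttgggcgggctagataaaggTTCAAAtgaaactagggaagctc
Ccnb1: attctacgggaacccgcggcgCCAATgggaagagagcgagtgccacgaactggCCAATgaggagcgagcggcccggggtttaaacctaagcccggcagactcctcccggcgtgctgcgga
Cdk1: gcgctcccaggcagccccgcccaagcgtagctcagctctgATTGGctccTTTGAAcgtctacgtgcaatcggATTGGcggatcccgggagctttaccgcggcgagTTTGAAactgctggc
Mki67 and Cdk1 each hold TTTGAA at 2 places in this window, Top2a holds CCAAT at 3 and TTTGAA at 1, and Ccnb1 holds CCAAT at 2 and no TTTGAA.

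Markers of neural stem cells and radial glia fell in part. Of 22 tested, 3 rose and 13 fell, with a median of -1.23. Fabp7, the lipid binder of radial glia (-3.73), Eomes, the factor of intermediate progenitors (-2.78), and Nes, the intermediate filament of stem cells (-2.40), fell. Sox2 (-0.37) and Pax6 (-0.13), which mature astrocytes and some neurons keep, did not pass the test, although Sox2 was called lower without KO 6W replicate 1 (-0.53, edgeR adjusted p = 0.0218), without a filter on low counts, with the replicate block and in a fit of only the 2 groups compared (edgeR adjusted p = 0.00575, 0.0308 and 0.0416). The list's exceptions upward were Lpar1 (2.01), a receptor also found on oligodendrocytes, Hopx (0.75), a marker of adult stem cells and astrocytes, and Hes1 (named after its value was seen, 0.48).

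Myelin had the highest median of the 40 lists. All 22 members rose, with log2 fold changes from 0.59 to 8.70 and a median of 5.22. Besides the genes already named, Mog, the outer surface glycoprotein (8.05), Mag, the adhesion protein of the inner myelin layer (6.48), and Cnp, the phosphodiesterase of the cytoplasmic channels (3.39), rose. The mean log2 CPM of the list was 1.74, 1.58, 1.63 and 1.57 in the 4 P5 libraries and 7.05, 6.37, 6.09 and 6.44 in the 4 6W libraries. Replicate 1 of 6W, the library with the highest mitochondrial share, was also highest for myelin. Without it and without WT 6W replicate 1, all 22 members still rose, with a median of 5.03.

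The regulators of the oligodendrocyte lineage did not follow the myelin genes as a group. Of 19 tested, 9 rose and 5 fell, with log2 fold changes from -2.25 to 9.5 and a median of 0.25. The value of 9.5 was also the highest over all tested genes. Myrf, the transcription factor that switches on myelin genes, rose by 4.18 and Sox10 by 0.80. Olig2, which is expressed throughout the lineage (-0.20), did not pass, although it was called lower without both 6W replicates 1 (-0.31, edgeR adjusted p = 0.0316). Markers of precursor cells went both ways. Gpr17, a receptor of committed precursors, rose by 0.80, whereas Pdgfra, the growth factor receptor of precursors, changed by -0.83, Ptprz1 by -1.47 and Vcan, a proteoglycan of precursors, by -2.25. Without both 6W replicates 1, 9 rose and 8 fell, so that this library pair moved the count of falls from 5 to 8.

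Astrocyte maturation genes mostly rose. Of 29 tested, 23 rose and 2 fell, with a median of 1.08. Gjb6, the connexin of mature astrocytes, rose from 3.49 to 60.8 CPM (log2 fold change 4.13), S100b by 3.50 and Slc1a2, the main glutamate transporter, by 2.29. The rises of Aqp4, the water channel of endfeet (0.55), and Gfap (0.70), the filament of astrocytes, were under 1 log2 unit, and that of Gfap was 0.44 without KO 6W replicate 1. Gpc6, a glypican secreted by young astrocytes, fell (-0.67). The list's mean log2 CPM was 7.26, 6.82, 6.85 and 6.84 in the 6W libraries, with replicate 1 again highest, and without both replicates 1 of 6W the counts were 22 and 4. Leaving out KO 6W replicate 1 alone also gave 4 falls, as did the replicate block.

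Genes of microglia rose for the larger part, and Lpl and Spp1 were among the exceptions. Of 27 tested, 19 rose and 5 fell, with a median of 1.33. Tmem119, a marker of mature microglia, had 1.37, 2.74, 1.8 and 1.06 CPM at P5 and 12.2, 9.76, 11.4 and 12.3 CPM at 6W (log2 fold change 2.71, SE 0.18, edgeR adjusted p = 5.2e-13). The purinergic receptor P2ry12 (2.10), the lectin Siglech (2.16), Cx3cr1, the fractalkine receptor (1.33), and Csf1r, the receptor on which microglia depend for survival (1.35), rose as well. Lpl (-2.34), a lipase, and Spp1 (-2.19), osteopontin, which microglia in early postnatal white matter express, fell. Lpl had 60.0 CPM in its lowest KO 6W library, more than Tmem119 had in any. Values from whole tissue cannot tell in which cells Lpl fell. KO P5 replicate 1 had the highest Spp1 level (56.3 CPM, against 13 to 16.5 in the others of its group), and without it the change was -1.4.

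Receptors of excitatory synapses changed member by member. Of 27 glutamate receptor genes and auxiliary subunits tested, 13 rose and 6 fell (background 31.2% and 31%). Grin2a, the NMDA receptor subunit of mature synapses, had 67.4, 68.9, 103 and 87.6 CPM at P5 and 436, 631, 710.2 and 639.8 CPM at 6W (log2 fold change 2.89, SE 0.17, edgeR adjusted p = 2.6e-14). Grin2b, the subunit of young synapses, had 1135, 1141, 1598 and 1444 CPM at P5 and 1000.2, 1462, 1819.8 and 1661 CPM at 6W. The groups overlapped and the change of Grin2b did not pass (log2 fold change 0.16, SE 0.19, edgeR adjusted p = 0.465). Grin3a (-1.99) and Grin2d (-1.56), also NMDA receptor subunits, fell, and Grin1, the obligatory subunit, rose by 1.14. The AMPA receptor subunits Gria1 (1.17) and Gria3 (1.42) rose.

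The scaffold on the postsynaptic side rose in most of its members. Of 32 genes of the postsynaptic density, 27 rose and 1 fell, with a median of 0.91. Camk2a, the kinase of long-term potentiation, rose from 546 to 3615 CPM (log2 fold change 2.73, SE 0.16, edgeR adjusted p = 3.31e-14). Ddn, dendrin (3.49), Shank3 (0.98), Dlg4, which encodes PSD-95 (0.65), and Homer1 (0.63) rose. The gene that fell was Nlgn2 (-0.37), the neuroligin of inhibitory synapses, a call lost without KO P5 replicate 3 (edgeR adjusted p = 0.0584).

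On the presynaptic side, 30 genes were tested and 23 rose and 4 fell, with a median of 0.80. Snap25, part of the fusion complex, rose from 495 to 2364 CPM (2.26), Vamp1, a vesicle protein of fast synapses, by 3.34, Syt1, the calcium sensor, by 1.46 and Syp by 1.08. Syn3 (-1.58) and Doc2a (-1.63) fell.

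**Figure D2:**
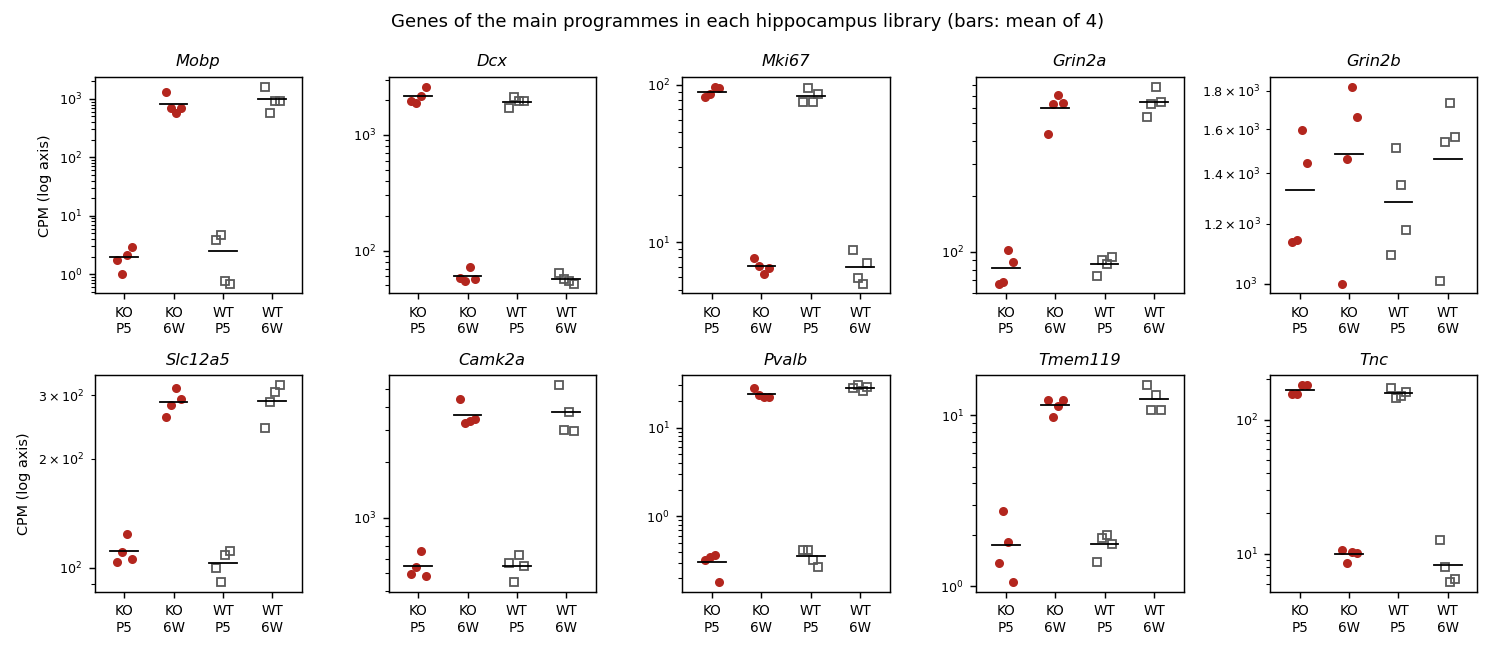
CPM values in each of the 4 libraries of KO P5, KO 6W, WT P5 and WT 6W hippocampus (points, log axes, black bars at the mean) for 10 genes. In 9 of them the libraries of the 2 ages are separated in both genotypes, and Grin2b is the panel in which they overlap.

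Inhibitory transmission genes rose more often than they fell. Of 25 tested, 16 rose and 3 fell, with a median of 0.60. Slc12a5, the chloride exporter KCC2, had 104, 110.5, 124 and 105 CPM at P5 and 262, 281, 315 and 294 CPM at 6W (log2 fold change 1.38, SE 0.09, edgeR adjusted p = 3.46e-13), with no overlap. Slc12a2, the chloride importer NKCC1, which oligodendrocytes and other glia express too, also rose (1.19). The GABA-synthesising enzymes Gad1 (1.32) and Gad2 (1.46) rose. Glra2, the glycine receptor subunit of fetal neurons, fell (-2.32), as did the GABA transporter Slc6a11 (-0.80).

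Interneuron markers went both ways, with 10 rose and 12 fell of 24 tested. Pvalb, the calcium buffer of fast-spiking cells, had 0.324, 0.352, 0.367 and 0.183 CPM at P5 and 27.7, 23.5, 22.1 and 22 CPM at 6W (log2 fold change 6.25, SE 0.20, edgeR adjusted p = 1.53e-19). Lamp5 (2.54) and Vip (2.22) rose, and Sst, somatostatin (0.21), did not pass. Lhx6, the transcription factor of young interneurons (-1.86), and Reln, the reelin gene of Cajal-Retzius cells and interneurons (-2.32), fell.

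Voltage-gated channels rose in 27 of 38 tested genes and fell in 5, with a median of 1.14. Scn1a (2.15) and Scn8a (1.59), sodium channels of adult axons, rose, and so did Kcna1 (2.46) and Kcnc1 (1.64), potassium channels that shorten action potentials. Kcnab1 (2.77) and Kcnab2 (2.71), auxiliary subunits of channels of the Kcna family, were among the larger rises. Hcn3 (-2.30) and Cacna1g (-0.89), a T-type calcium channel, fell. Without both 6W replicates 1, 31 rose and 5 fell.

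Matrix genes were called in shares near those of all genes (31.2% and 31%), with 8 rose and 11 fell of 28 tested and a median of -0.03. Tnc, the tenascin of the juvenile matrix, had 155, 154, 179.6 and 179.8 CPM at P5 and 10.7, 8.61, 10.3 and 10.2 CPM at 6W. Hapln4, a link protein of perisynaptic and nodal matrix (5.49), Timp4 (1.40) and Tnr, tenascin-R (1.17), rose. Acan, the core proteoglycan of perineuronal nets (0.07), Bcan (0.15) and Hapln1 (-0.09) did not pass the test.

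Markers of hippocampal fields, which check the tissue label, were measured at both ages and rose for the larger part. Of 28 tested, 17 rose and 3 fell, with a median of 0.90. Dsp, desmoplakin, a marker of dentate granule cells (3.47), Lct (4.30), also of the dentate gyrus, Wfs1, a CA1 marker (1.79), and Fibcd1, also of CA1 (0.91), rose. Prox1, the dentate transcription factor, was already present at P5 (229 CPM) and did not pass (-0.20). Nts, neurotensin (-3.33), and Zbtb20, a factor of hippocampal pyramidal neurons (-0.58), fell.

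Neuropeptides and trophic factors rose in 15 of 28 tested genes and fell in 4. Nrn1, neuritin (2.86), Fgf1 (2.60), Bdnf (1.55), the trophic factor of active neurons, and its receptor Ntrk2 (0.79) rose, and Igf1 (-1.61) and Fgf13 (-0.89) fell. Activity genes were higher at 6W for 13 of 23 and lower for 3. Arc, which controls AMPA receptor turnover, changed by 3.77, Egr1 by 2.42 and Npas4 by 2.09. Fos (5.37, 3.25, 2.72 and 2.12 CPM at P5 and 3.89, 9.44, 4.41 and 12.1 CPM at 6W) overlapped between ages and did not pass (1.15). It was called higher without KO P5 replicate 1, KO 6W replicate 1 or KO 6W replicate 3, with edgeR adjusted p = 0.0307, 0.0304 and 0.0359, and also without a filter on low counts and in a fit of only the 2 groups compared (edgeR adjusted p = 2.69e-10 and 0.00732).

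Most genes of energy metabolism that changed rose. Of 25 genes of glycolysis and lactate handling, 18 rose and 5 fell, with a median of 0.83. Eno2, the neuronal enolase (2.18), Pdk2, a kinase that restrains pyruvate dehydrogenase (1.94), Ldhb (1.57) and Pfkm (0.88) rose. Ldha (-0.44) and the lactate transporters Slc16a1 (-0.85) and Slc16a7 (-0.72) fell. Of 45 nuclear genes of the respiratory chain, 23 rose and 0 fell by edgeR, with small changes (median 0.26). Among them 1 was lower at an unadjusted p under 0.05, and DESeq2 called 1 lower. Sdha of complex II (1.31) and Cox8a of complex IV (1.12) rose most among the well expressed members.

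Genes of cholesterol synthesis fell for the larger part. Of 32 genes of the pathway, 5 rose and 19 fell, with a median of -0.64. Fdps, which makes farnesyl diphosphate, had 28.2, 31.4, 20.9 and 25.7 CPM at P5 and 6.96, 7.55, 5.39 and 5.49 CPM at 6W (log2 fold change -2.07, SE 0.15, edgeR adjusted p = 4.03e-12). Sqle, a later enzyme of the pathway, fell as well (-1.58). Cyp46a1, which turns neuronal cholesterol into an exportable oxysterol (1.68), and Abcg1, a sterol exporter (2.22), rose.

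Ribosomal protein genes fell in 29 of 45 by edgeR and rose in 0, also by DESeq2 and at an unadjusted p under 0.05 (median -0.67), with Rplp0 (-1.47) and Rps2 (-1.14) lowest among them. Without both 6W replicates 1, 37 fell. Many of these genes have near-identical processed copies elsewhere in the genome, so their counts are uncertain.

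Chromatin regulators fell in 29 of 39 genes and rose in 2, with a median of -0.86. Dnmt3a, the DNA methyltransferase of postnatal neurons (-1.57), Ezh2, the histone methyltransferase of Polycomb (-2.02), Tet1 (-1.69), which oxidises methylated cytosine, and Hdac2 (-0.94) fell. Hdac5 (0.91) and Hdac11 (1.34) were the 2 that rose.

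RNA-binding and splicing factors fell in 21 of 34 and rose in 7 (median -0.65). Ptbp1, the splicing repressor of non-neuronal cells (-1.25), and Ptbp2, its paralogue of young neurons (-0.44), fell. Mbnl2 (2.69) and Mbnl1 (1.32), which promote adult splicing, and Rbfox3, the antigen of mature neurons (0.81), rose. Imprinted and fetal growth genes fell in 14 of 23 and rose in 5. Nnat, neuronatin (-2.50), Zim1 (-3.24) and Plagl1, a zinc finger factor (-0.70, a call lost without KO 6W replicate 1, edgeR adjusted p = 0.0533), fell, and Impact (2.31), Peg3 (0.78) and Dlk1 (2.19) rose.

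Vessel and connective tissue genes fell for the larger part. Of 28 genes of endothelium and pericytes, 7 rose and 17 fell. Cldn5, a tight junction protein (-1.23), Cdh5 (-1.40) and Kdr, the VEGF receptor (-1.35), fell, while Flt1 (1.02), Ly6c1 (2.32) and Abcb1a, the drug efflux pump of the barrier (1.19), rose. Of 23 collagen and fibroblast genes, 2 rose and 18 fell, with a median of -1.45. Col3a1 changed by -3.55 and Col1a1 by -2.32, whereas Mgp (1.76) rose.

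Genes of hormone response rose in 18 of 25 and fell in 2. Klf9, a target of thyroid hormone and glucocorticoids (2.23), Nr3c1, the glucocorticoid receptor (1.49), and Thrb, a thyroid hormone receptor (1.60), rose. Thra (-0.65) was among those that fell. Class I MHC and interferon-stimulated genes rose in 18 of 24 and fell in 1, with B2m, the light chain of class I molecules, at 1.48 and H2-K1 at 1.49. Tapbp (-0.52) was the gene that fell.

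The DNA repair genes around the missing glycosylase were followed pathway by pathway. In base excision and single-strand break repair, 30 genes were tested, and 4 rose and 16 fell, with a median of -0.38. The rises were 2 without a filter on low counts, without both 6W replicates 1, and without KO P5 replicate 2, KO P5 replicate 3 or KO 6W replicate 2. Of the other glycosylases, Ung, which removes uracil, had 2.63, 2.51, 2.23 and 2.27 CPM at P5 and 1.25, 0.691, 0.946 and 0.889 CPM at 6W (log2 fold change -1.35, SE 0.26, edgeR adjusted p = 6.17e-05). Tdg, which removes thymine from mismatches with guanine (-1.17), and Ogg1, which removes oxidised guanine (-0.40), fell. The call of Ogg1 was lost without KO P5 replicate 1, KO 6W replicate 3 or KO 6W replicate 4 (edgeR adjusted p = 0.185, 0.128 and 0.0552), and in a fit of only the 2 groups compared (edgeR adjusted p = 0.0524). Downstream of the glycosylases, Apex1, the endonuclease that cuts at the base-free site, changed by -0.38, and Lig1, the ligase of replication and long-patch repair, by -1.55. Polb, the gap-filling polymerase, rose by 0.29, a call lost without KO P5 replicate 3 or KO 6W replicate 2 (edgeR adjusted p = 0.0807 and 0.106). Polg, the mitochondrial polymerase, rose by 0.27, a call lost without a filter on low counts (edgeR adjusted p = 0.0718).

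Of 20 genes of direct reversal and tolerance of alkylation damage, 5 rose and 8 fell (25% and 40%, against 31.2% and 31% of all genes). Mgmt, the methyltransferase that repairs methylated guanine, had 0.612, 1.14, 0.612 and 0.475 CPM at P5 and 1.07, 0.783, 0.666 and 0.387 CPM at 6W and did not pass (0.03). The dioxygenases Alkbh2 (-0.33) and Alkbh3 (-0.24), which demethylate bases directly, did not pass either. Rev3l (-1.75) and Mad2l2 (-1.66), the subunits of translesion polymerase zeta, fell. Polk, another translesion polymerase (0.81), and Hltf (0.76) rose.

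The other repair pathways were counted in the same way, with no test between them. Among all genes 31.2% rose and 31% fell. In homologous recombination and the Fanconi pathway, 3 rose and 20 fell of 34 (8.82% and 58.8%), with Brca2 at -1.19 and Brca1 at -1.36. In nucleotide excision repair, 8 rose and 10 fell of 26 (30.8% and 38.5%), shares near those of all genes. These rises were 5 without a filter on low counts and without KO P5 replicate 2, KO P5 replicate 3 or KO 6W replicate 2. In mismatch repair 1 rose and 3 fell of 8 (12.5% and 37.5%). In end joining and damage signalling, 9 rose and 14 fell of 33 (27.3% and 42.4%). Trp53 (-0.76), its target Bax, which promotes apoptosis (-1.09), and H2afx, the histone that marks breaks (-1.02), fell, whereas Sesn1 (1.07), another target, rose and Atm (0.00) did not pass.

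The change in KO was then set against that in WT hippocampus, in which 62% of the tested genes were called. Of the 4779 genes called and changed at least 2-fold in KO, 4345 (90.9%) were called in the same direction in WT, 433 were not called in WT and 1 was called in the opposite direction. Across the 17786 genes the log2 fold changes of KO and WT, which share no library, had a Pearson correlation of 0.926 and a Spearman correlation of 0.926, given as a description over genes that are not independent. The difference of the changes (KO minus WT) was itself tested, and 1 gene was called (0.00562%) by edgeR, while 764 genes had an unadjusted p under 0.05. DESeq2 called 7 genes in the same comparison. Without a filter on low counts edgeR called 155 genes, 140 with the higher change in KO and 15 with the lower. Of these, 5 lay outside the 17786 genes, and the median of the called genes' mean counts was 144, so the count of differences depends on the filter also for genes that were tested with it. For 12656 genes (71.2%) the 95% interval of the difference lay within 1 log2 unit on either side of 0, and for 9260 (52.1%) within 1.5-fold. Of the 4779 genes changed at least 2-fold in KO, 2558 (53.5%) had an interval within 1 log2 unit of 0. For the genes outside the first of these ranges the libraries leave room for a difference of more than 2-fold.

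**Figure D3:**
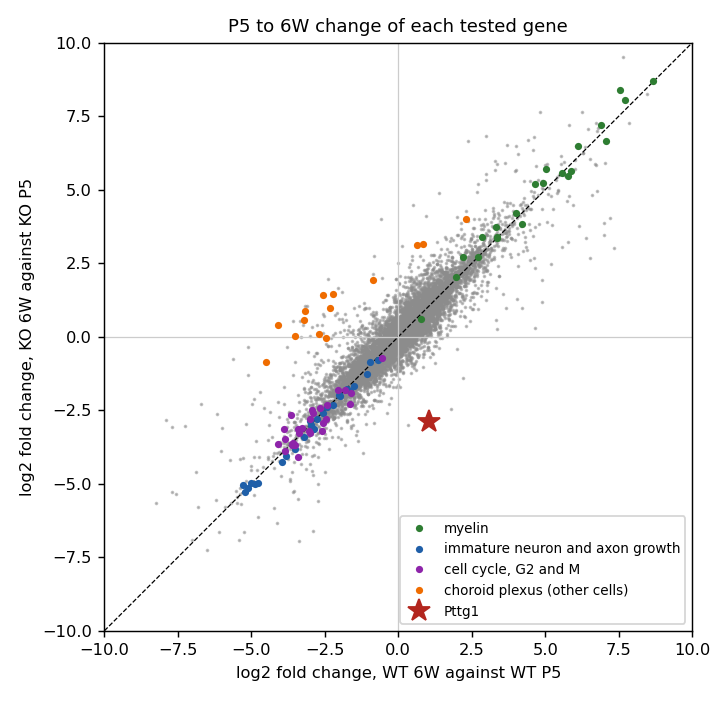
Log2 fold change between P5 and 6W of each of the 17786 tested genes in WT (horizontal) and KO (vertical), with 4 libraries per group, coloured for 4 gene lists. Most genes lie along the dashed line of equal change (Pearson correlation 0.926), while Pttg1 (star) fell in KO and rose in WT, and the choroid plexus genes lie above the line.

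For 5 genes described above, the interval of the difference between genotypes included 0. It was 0.03 (95% interval -1.14 to 1.20) for Mobp and -0.06 (95% interval -0.58 to 0.47) for Dcx on the log2 scale. Mki67 had a difference of -0.08 (95% interval -0.49 to 0.34), Grin2a one of -0.03 (95% interval -0.49 to 0.42) and Slc12a5 one of -0.12 (95% interval -0.38 to 0.14). Of these, the interval of Mobp was the widest, and it leaves room for a difference of more than 2-fold either way, while the other 4 intervals lay within 1 log2 unit of 0. Of the 20 genes with the largest rises and falls in KO, 18 had an interval that included 0. The other 2 were Cntnap1, with a difference of 0.33 (95% interval 0.01 to 0.64), and Rasgrf1, with 0.46 (95% interval 0.07 to 0.84), and neither was called (edgeR adjusted p = 1 for both). By list, the median log2 fold change was 5.22 in KO and 4.78 in WT for myelin, -2.87 and -2.86 for immature neurons, and -3.13 and -3.04 for the G2 and M genes. For the postsynaptic density the medians were 0.91 and 0.87, and for base excision repair -0.38 and -0.21. Among the 1033 distinct members of the 40 lists, 0 were called for the difference by edgeR and 0 by DESeq2, and 53 had an unadjusted p under 0.05.

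**Figure D4:**
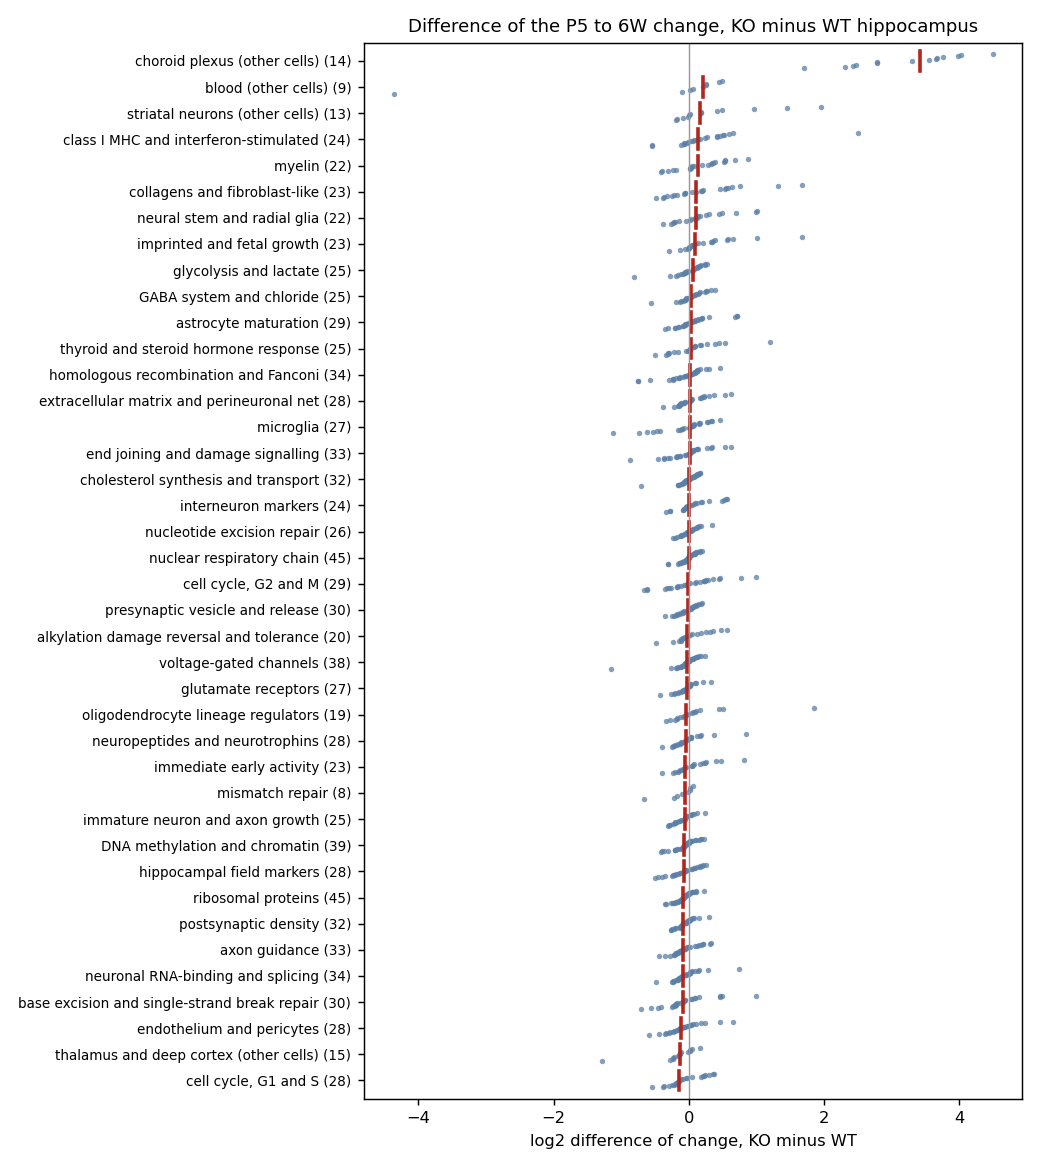
Difference between the KO and the WT change from P5 to 6W (log2, KO minus WT) for every tested member of 40 gene lists (points, 4 libraries per group), with list medians as vertical red lines. The medians lie between -0.14 and 0.21 except for choroid plexus, a tissue outside the hippocampus, at 3.42.

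The gene called was Pttg1 (ENSMUSG00000020415, chr11:43420250-43426251), which encodes securin, the inhibitor of separase that holds sister chromatids together until anaphase. In KO it had 7.49, 6.07, 6.42 and 5.81 CPM at P5 and 1.39, 0.829, 0.841 and 0.425 CPM at 6W. In WT it had 15.9, 10.6, 11.6 and 12.8 CPM at P5 and 28, 25.3, 27.5 and 24.7 CPM at 6W. The 4 groups did not overlap, and the order was KO 6W, KO P5, WT P5 and WT 6W. Pttg1 fell in KO (log2 fold change -2.91, SE 0.21, edgeR adjusted p = 1.37e-12) and rose in WT (1.05, edgeR adjusted p = 7.08e-07), a difference of -3.96 (95% interval -4.48 to -3.43) with an edgeR adjusted p = 1.01e-10. It passed in each alternative fit, with differences from -4.25 to -3.72. Unlike the mitotic genes, of which 29 of 29 also fell in WT, Pttg1 was higher in WT at 6W than at P5. Pttg1 lies 11.2 Mb from Mpg on chromosome 11.

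Aldh2 and Gabra2 were examined beside it because both were higher in every KO than in every WT library at each age, which was known from earlier results of these data. Aldh2, the mitochondrial aldehyde dehydrogenase (chr5:121566027-121593824), had 16.2, 18.8, 20.8 and 16.7 CPM at P5 and 24.2, 22.1, 22 and 18.1 CPM at 6W in KO, and 4.77, 4.39, 3.64 and 4.7 CPM and 8.57, 8.58, 6.76 and 8.23 CPM in WT. Its change in KO did not pass (log2 fold change 0.25, SE 0.11, edgeR adjusted p = 0.0501), although it did without KO P5 replicate 3 or KO 6W replicate 4 (0.32 and 0.33, edgeR adjusted p = 0.0228 and 0.0163), in a fit of only the 2 groups compared (0.27, edgeR adjusted p = 0.0434) and by DESeq2 (0.24, adjusted p = 0.0481). Its change in WT was 0.88 (edgeR adjusted p = 6.53e-07), and the difference between them, -0.62 (95% interval -0.96 to -0.28), did not pass either (edgeR adjusted p = 0.545). Gabra2, a GABA receptor subunit (chr5:70957597-71095849), had 559, 561, 558 and 697 CPM at P5 and 605, 661, 728 and 648 CPM at 6W in KO, and 115, 139.7, 132 and 147 CPM and 189, 262, 230.0 and 195 CPM in WT. It did not pass in KO (0.15, edgeR adjusted p = 0.456) and changed by 0.72 in WT (edgeR adjusted p = 0.00102), with a difference of -0.56 (95% interval -1.07 to -0.05) and an edgeR adjusted p = 1.

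**Figure D5:**
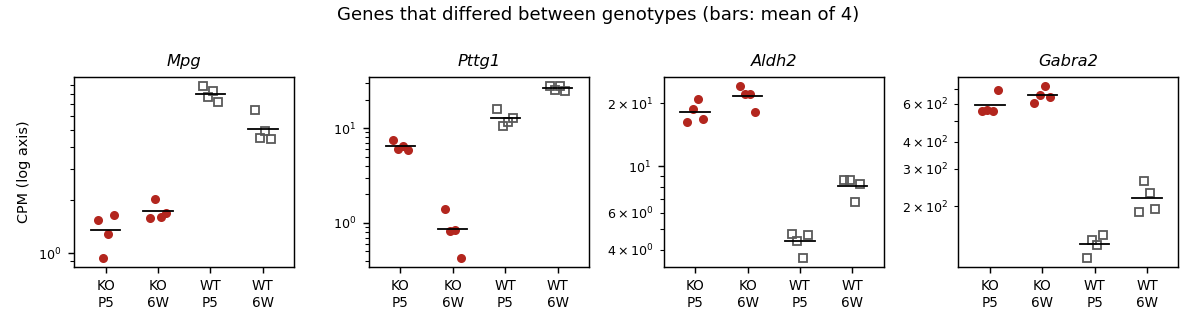
CPM values of Mpg, Pttg1, Aldh2 and Gabra2 in each of the 4 libraries of KO and WT hippocampus at P5 and 6W (points, log axes, black bars at the mean). Pttg1 falls in KO and rises in WT without overlap between any of the 4 groups, and Mpg is lower in every KO library than in any WT library.

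Genes of the choroid plexus, the epithelium that makes cerebrospinal fluid in the ventricle beside the hippocampus, varied widely between libraries of a group. In KO the mean level of the list differed less between the ages (1.82 at P5 and 2.60 at 6W, mean log2 CPM over 4 libraries) than the SD within each (1.95 and 2.07), whereas in WT it was 4.55 ± 0.76 (SD, n = 4) at P5 and 1.71 ± 1.64 (SD, n = 4) at 6W. Ttr, its most abundant marker, had 16.1, 1867, 1822 and 7.31 CPM at P5 and 100.2, 4621, 74.9 and 56 CPM at 6W in KO, and 7343, 7350, 1929 and 3736 CPM and 45, 16.9, 55.9 and 1063 CPM in WT. The mean log2 CPM of the 14 choroid plexus genes ran from -0.24 to 3.51 in KO P5 and from 1.32 to 5.69 in KO 6W. In KO, 3 of 14 rose and 0 fell, with 0 lower at an unadjusted p under 0.05 and 0 by DESeq2, while in WT 1 rose and 8 fell. Among the 3 were Enpp2 and Kl, which were called higher in each of 16 alternative fits (1.89 to 3.44 and 2.23 to 3.44). Ttr did not pass with all libraries, so these 2 rises did not follow the list's most abundant marker. The median log2 fold change was 0.92 in KO against -2.50 in WT. The differences between genotypes ran from 1.71 to 4.49, with 13 of 14 at an unadjusted p under 0.05 and none called. KO 6W replicate 2 decided the KO value, and without it the list's median was -1.36, with 3 that rose and 3 that fell. Without a filter on low counts 9 rose and 1 fell, and Ttr was called higher (0.38, edgeR adjusted p = 0.0106) despite the overlap of its libraries. Folr1 did not pass with all libraries (0.03), and without that library it was called lower (-2.48, edgeR adjusted p = 0.0453). The part of choroid plexus in the other results was not tested. Of the blood markers, 1 rose and 1 fell of 9 (0 fell without KO 6W replicate 1), of the striatal markers 3 rose and 3 fell of 13 (5 fell without KO 6W replicate 4), and of the thalamic or deep cortical markers 2 rose and 6 fell of 15. Among all genes 31.2% rose and 31% fell.

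The change in KO hippocampus was also compared with that in KO prefrontal cortex in a fit of all 48 libraries. The difference was called for 1754 of 18849 genes (9.31%), 789 (4.19%) with a more positive change in hippocampus and 965 (5.12%) with a more negative one, and hippocampus and cortex may come from the same animals. Of the myelin genes, 11 of 22 were called, all with the larger rise in hippocampus, and a median difference of 1.0. KO 6W replicate 1 of hippocampus, the library with the highest myelin level at 6W, moved this count, and without it 7 were called, with a median difference of 0.75. The count was also 7 without prefrontal KO P5 replicate 4 or KO 6W replicate 4 (medians 1.04 and 0.92), and 8 to 12 with any other single library left out, all with the larger rise in hippocampus. Mbp changed by 4.17 in prefrontal cortex (difference 1.41, SE 0.32, edgeR adjusted p = 0.00162), and the difference was 1.01 without that hippocampal library (edgeR adjusted p = 0.0139). For Mobp, which changed by 7.76 in prefrontal cortex, the difference did not pass (0.93, SE 0.56, edgeR adjusted p = 0.374). Of the hippocampal field markers, 15 of 28 were called, 13 of them with a more positive change in hippocampus. Dsp changed by -2.14 in prefrontal cortex and by 3.47 in hippocampus (difference 5.61, SE 0.60, edgeR adjusted p = 2.82e-09), whereas Wfs1 changed by 1.78 and 1.79 and its difference did not pass (edgeR adjusted p = 0.997).

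The 10 genes with the smallest p-values for this difference were Serpinb8, Rasgef1c, Myl4, Cckbr, Arpp19, Myo5b, Sstr2, Gpr161, St3gal5 and Fam163a. Serpinb8, a protease inhibitor, rose by 5.16 in prefrontal cortex and by 0.72 in hippocampus (difference -4.44, SE 0.28, edgeR adjusted p = 1.27e-15). Cckbr, the cholecystokinin receptor of cortical neurons, changed by 3.65 in cortex and by 0.42 in hippocampus, where it did not pass, and Myl4, a myosin light chain, by 4.61 in cortex and 0.03 in hippocampus, where it did not pass. Sstr2, a somatostatin receptor, changed by -1.76 in hippocampus and 0.48 in cortex. Myo5b (2.09) and Gpr161 (2.43) were the 2 of the 10 with a more positive change in hippocampus.

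Fewer genes were called after 6 weeks in KO hippocampus. Between 6W and 6M, 80 genes were called (0.45%), 10 higher (0.0562%) and 70 lower (0.394%), with 1203 at an unadjusted p under 0.05. The count rested on single libraries: it was 38 without KO 6W replicate 1, 51 without KO 6W replicate 2, and 48 without either KO 6M replicate 2 or KO 6M replicate 3. By list, 9 of 22 myelin genes, 5 of 25 genes of immature neurons and 5 of 29 G2 and M genes fell at this step, against 0.394% of all genes, and 0 of these rose by edgeR or DESeq2. Their median log2 fold changes were -0.77, -0.21 and -0.68. Without KO 6W replicate 1, the library with the highest myelin level at 6W, 5 myelin genes fell (median -0.45) and 1 gene of immature neurons. With any other single library left out, 5 to 11 myelin genes and 2 to 4 genes of immature neurons fell, and 4 to 6 G2 and M genes fell with any library left out. Without a filter on low counts the falls were 16, 8 and 9, and in a fit of only the 2 groups compared they were 7, 3 and 2, for myelin, immature neurons and G2 and M. Of genes described above for the first step, 4 that were not called at this one are given as levels. Mobp averaged 493 CPM at 6M after 818 at 6W, Grin2a 599 after 604, Dcx 43.6 after 60.4, and Pttg1 0.648 after 0.871.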

How the data were processed

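RNA was measured in 48 libraries, of which 8 (KO hippocampus at P5 and 6W) are the subject here. Total RNA was purified on columns, a Lexogen SENSE kit gave strand-specific mRNA libraries, and single reads of 75 bases were taken, all per the labels. Per the submitters' processing notes, bcl2fastq 2.20.0.422, STAR 2.4.0 and HTSeq were used with GRCm38, in roles that are not stated. The use of strand in counting is not given in the sources used here, so overlapping and antisense genes cannot be told apart. The deposited table holds raw whole-number counts per Ensembl gene, with no normalization by the authors. Symbols and positions come from GENCODE M21, on GRCm38.

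The test was edgeR's quasi-likelihood test (version 4.0.16, in R 4.3.3, with glmQLFit, glmQLFTest, TMM factors and filterByExpr) in a single fit of the 24 hippocampus libraries in 6 groups, with 18 residual degrees of freedom, and 17786 genes. The comparison with prefrontal cortex used all 48 libraries in 12 groups and 18849 genes. Adjustment (Benjamini-Hochberg) ran over every gene tested in a fit, and "rose", "fell" and "called" mean an adjusted p under 0.05. The SE is the log2 fold change divided by the square root of F. CPM values are TMM-scaled, and list levels are means of log2 CPM with a prior count of 1. The code was tested on simulated counts. There the test of the difference between genotypes called 52% of true differences of 1 log2 unit and 84.8% of those of 2 log2 units. Of its calls, 6.21% were false. Floors cover counting error only: reads carry no molecular identifiers and may not be independent.

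The gene lists and the genes followed were chosen with earlier results of these data known. Named genes are Mpg, Aldh2, Gabra2 and Pttg1, the 10 that rose and the 10 that fell most (called, no overlap, mean log2 CPM of at least 5), each list's anchor genes, its 2 largest rises and 2 largest falls (mean log2 CPM of at least 3), and up to 10 genes by p-value in each test of a difference. Values of some genes that this rule names are not reported here. Of the list entries, 13 were not tested, 12 of them below the filter.

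Libraries of a group differed by more than sampling noise (chi-square per degree of freedom of 12 to 86.9 between libraries of the 2 KO groups), so each counted as 1 sample. Numbers in the titles were checked as pairs by the correlation of same-numbered libraries' deviations from their group means over 9747 genes. Between KO P5 and KO 6W these were 0.31, 0.09, 0.08 and 0, and the numbers were not taken as pairs. Between KO P5 and WT P5 they were 0.05, -0.24, 0.21 and 0.39. All 4 were over 0.1 between KO 6W and WT 6W (0.67, 0.12, 0.37 and 0.21) and between KO 6W and KO 6M (0.3 to 0.43). The main fits did not use the numbers as pairs there either, and only an alternative fit took the number as a block. The counts with the number as a block are given with the other settings. The alternatives were median-of-ratios factors, other filters on low counts, DESeq2 1.42.0, library sizes without mitochondrially encoded genes, the block, fewer groups in the fit and each library left out.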

Additional observations from a re-analysis of the deposited data

Results flagged for a closer look

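In 532 groups of 4 libraries, made of the genes and lists described above in the KO libraries of each age (and in WT for Mpg, Pttg1, Aldh2 and Gabra2), 48 held a library whose gap to its nearest neighbour was, as a part of the range of its group, over Dixon's 95% critical value. Chance alone marks about 1 in 20 such groups. Genes of the same library are not independent, and no explanation was tested.

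KO 6W replicate 1 stood apart for 17 genes (CPM, against the range of the other 3 libraries): Aqp4 at 249 (159.7 to 172), Bcan at 99.5 (62.7 to 64.5), Bcas1 at 268 (114 to 132), Camk2a at 4413 (3276 to 3444), Ccnb1 at 2.55 (1.01 to 1.05), Dlg4 at 511 (419 to 430.0), Ezh2 at 6.96 (4.33 to 4.59), Gpr17 at 63.5 (36.4 to 39.1), Gria3 at 195 (226 to 227), Grin2d at 6.58 (8.97 to 9.3), Hopx at 112 (68 to 71.1), Kcnab1 at 131 (155 to 160.2), Lpl at 60.0 (82.7 to 86.9), Mbp at 3378 (1291 to 1606), Sox10 at 26.9 (13.9 to 15.8), Timp4 at 69.3 (42.4 to 43.5), Tnr at 386 (451 to 463). For the list astrocyte maturation its mean log2 CPM was 7.26, against 6.82 to 6.85 in the others. For the list oligodendrocyte lineage regulators its mean log2 CPM was 4.96, against 4.46 to 4.54 in the others. KO 6W replicate 2 stood apart for 2 genes: Folr1 at 22.1 (0.736 to 1.58), Ttr at 4621 (56 to 100.2). For the list choroid plexus its mean log2 CPM was 5.69, against 1.32 to 1.77 in the others. KO 6W replicate 3 stood apart for 2 genes: Dpysl3 at 70.2 (59.8 to 61.3), Hapln1 at 66.9 (57.1 to 58.7). KO 6W replicate 4 stood apart for 1 gene: Sox11 at 19.2 (25.4 to 25.6).

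KO P5 replicate 1 stood apart for 5 genes: Myl4 at 1.59 (1.06 to 1.1), Nnat at 403 (433 to 438), Nts at 236 (101 to 118), Spp1 at 56.3 (13 to 16.5), Sst at 126 (90.2 to 94.7). For the list microglia its mean log2 CPM was 3.13, against 2.64 to 2.72 in the others. KO P5 replicate 2 stood apart for 3 genes: Ccnd1 at 31.9 (27 to 27.3), Col3a1 at 41.4 (23 to 25.5), Gad1 at 141 (123 to 124). KO P5 replicate 3 stood apart for 8 genes: Cdk1 at 9.94 (12.1 to 12.2), Hdac5 at 26.9 (21.7 to 22.1), Mag at 1.47 (0.979 to 1.02), Ntrk2 at 369 (335 to 339.7), Reln at 362 (280.1 to 285), Scn8a at 155 (116 to 122), Slc16a1 at 82.4 (90.7 to 92.4), Wfs1 at 27.9 (18.1 to 19.5). For the list postsynaptic density its mean log2 CPM was 6.71, against 6.47 to 6.50 in the others. For the list presynaptic vesicle and release its mean log2 CPM was 7.16, against 6.95 to 6.98 in the others. KO P5 replicate 4 stood apart for 3 genes: Arpp19 at 216 (175 to 182), Gabra2 at 697 (558 to 561), St3gal5 at 59.8 (62.7 to 63). For the list immature neuron and axon growth its mean log2 CPM was 8.94, against 8.80 to 8.82 in the others.

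Pttg1 changed in opposite directions in the 2 genotypes, and the difference was tested: the change from P5 to 6W differed by -3.96 (log2, KO minus WT, edgeR adjusted p = 1.01e-10). Between KO hippocampus and KO prefrontal cortex, the 10 genes with the smallest p-values had tested differences of change (hippocampus minus cortex, log2) of -4.44 for Serpinb8, -2.79 for Rasgef1c, -4.60 for Myl4, -3.24 for Cckbr, -1.67 for Arpp19, 2.09 for Myo5b, -2.24 for Sstr2, 2.43 for Gpr161, -1.39 for St3gal5 and -2.44 for Fam163a, with edgeR adjusted p-values between 1.27e-15 and 6.93e-11.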

How the results depend on the processing

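The count of genes called between P5 and 6W in KO (11051) stayed within 1.5 times of itself in each alternative, from 10597 in a fit of only the samples compared to 11356 with the replicate block, and was 10482 to 10800 with a single library left out. With the replicate block, 4814 genes were called and at least 2-fold changed in KO, 11338 were called in WT, 1 for the difference between genotypes, 1895 for the difference between tissues and 89 between 6W and 6M, so the block moved none of these counts by over 1.5 times. In an alternative chosen after seeing the data, without both 6W replicates 1, the KO count was 10923. The difference between genotypes (1 gene) grew to 155 genes with no filter on low counts (140 higher and 15 lower) and to 7 with DESeq2 (6 higher and 1 lower). With single libraries left out it was 1 to 3 genes. It was 2 without KO P5 replicate 3 (with Arsg), 2 without KO P5 replicate 4 (with Eipr1) and 3 without WT P5 replicate 3 (with Prps2 and Slco1a4), genes named after their values were seen. The step from 6W to 6M (80 genes) gave 339 with no filter, 124 with DESeq2, 32 in a fit of only the samples compared, and 38 to 85 with single libraries left out. The cause was not tested, except that the smaller fit had fewer samples. The direction of Folr1 reversed without KO 6W replicate 2, and its change ranged from -2.48 to 0.61 with single libraries left out. For 28.8% of tested genes the interval of the difference between genotypes reached beyond 1 log2 unit, and depth and the spread between libraries were not separated.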
